A study of Mus musculus with 24 samples.

Results

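These genes carried dense trimethylation of histone H3 on lysine 27 (H3K27me3) over their length and little trimethylation on lysine 4 (H3K4me3) in basal cells of the mouse mammary gland. They were chosen by their measured levels. Read counts were divided by the library total and multiplied by 1000000 (CPM), then averaged over the 8 libraries of a mark. A gene was kept if it lay on an autosome, had a mean H3K4me3 level under 5 CPM and had a mean H3K27me3 level of at least 2 CPM per kb of RefSeq gene length. The rule kept 2103 of 23916 autosomal genes, which is 8.79%. The cells came from untreated C57BL/6 female mice. They had been divided by flow cytometry on the Wnt-pathway receptor Lgr5 and the tetraspanin Tspan8, which gave 4 subpopulations named Lgr5+Tspan8hi, Lgr5+Tspan8-, Lgr5-Tspan8hi and Lgr5-Tspan8-. Each had 2 chromatin immunoprecipitation libraries for each mark. Whether the 2 libraries stem from different mice is not in the labels, and the p-values here reflect the spread among these libraries alone, which may be technical.

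H3K27me3 is laid down by Polycomb repressive complex 2, whose enzymes are Ezh1 and Ezh2, and it is bound by complexes of the PRC1 family that compact chromatin and modify histone H2A. H3K4me3 is deposited at promoters by the Set1 and MLL methyltransferases, mostly where the DNA is rich in CpG dinucleotides. Developmental regulators in stem cells often carry both marks, a state called bivalent, while genes with H3K27me3 alone are held silent without the mark of an open promoter. Basal mammary cells are an epithelial lineage, in which genes particular to nerve, muscle, germ line, blood and sensory organs are usually silent.

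Promoters of 4 named members are shown first to give the spread of CpG content among them, from a window with 19 CpG to one with 3, the median of the members. Each window runs from 250 bases before to 50 bases after the RefSeq gene start on GRCm38.p6, the assembly that mm10 denotes, and is written 5′ to 3′ along the gene. Capitals mark every CpG. Evx1, a homeobox factor of spinal interneurons, was the densest of the developmental regulators. Neurog3 starts the endocrine programme of the pancreas, Acta1 encodes skeletal muscle actin, and Krtap5-4 encodes a keratin-associated protein of the hair shaft.
Evx1 (chr6:52313248-52313547, plus strand): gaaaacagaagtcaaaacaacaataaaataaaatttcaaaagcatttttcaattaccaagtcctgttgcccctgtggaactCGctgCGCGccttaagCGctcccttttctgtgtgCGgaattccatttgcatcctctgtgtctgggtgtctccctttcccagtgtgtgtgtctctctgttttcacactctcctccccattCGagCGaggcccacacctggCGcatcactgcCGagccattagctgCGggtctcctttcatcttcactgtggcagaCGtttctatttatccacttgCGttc
Neurog3 (chr10:62132840-62133139, plus strand): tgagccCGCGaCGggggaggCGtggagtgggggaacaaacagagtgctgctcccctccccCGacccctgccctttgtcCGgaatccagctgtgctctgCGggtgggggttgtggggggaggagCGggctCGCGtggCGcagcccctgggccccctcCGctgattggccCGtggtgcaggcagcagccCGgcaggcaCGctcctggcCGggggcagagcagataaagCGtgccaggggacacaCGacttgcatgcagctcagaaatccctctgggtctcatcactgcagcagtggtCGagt
Acta1 (chr8:123894726-123895025, minus strand): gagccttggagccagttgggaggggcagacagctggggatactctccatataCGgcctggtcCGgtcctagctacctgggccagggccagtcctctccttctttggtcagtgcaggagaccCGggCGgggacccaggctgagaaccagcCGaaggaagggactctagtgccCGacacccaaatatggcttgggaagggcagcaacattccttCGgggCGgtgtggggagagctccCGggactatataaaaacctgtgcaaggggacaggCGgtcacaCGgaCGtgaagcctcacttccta
Krtap5-4 (chr7:142303252-142303551, plus strand): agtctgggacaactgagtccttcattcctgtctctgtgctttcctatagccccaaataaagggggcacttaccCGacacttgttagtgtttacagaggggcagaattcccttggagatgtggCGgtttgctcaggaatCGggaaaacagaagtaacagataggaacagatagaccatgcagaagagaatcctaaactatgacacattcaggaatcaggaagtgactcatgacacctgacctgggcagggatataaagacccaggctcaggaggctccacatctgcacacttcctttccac
The windows hold 12 CpG in Evx1, 19 in Neurog3, 12 in Acta1 and 3 in Krtap5-4. Their GC contents are 48.7%, 68.3%, 61% and 48.3%, and the observed over expected CpG ratios are 0.71, 0.547, 0.435 and 0.171. The letters TATAAA occur in the windows of Acta1 and Krtap5-4 and not in those of the other two.

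MicroRNA genes were the most frequent of the small RNA genes among those chosen, with 203 members of 566 autosomal microRNA genes. RefSeq gave a mature sequence for 166 of them, with 252 seeds (bases 2 to 8, which pair with target messages), and 21 seeds were shared by at least 2 of the genes. The mature sequences below belong to 4 such groups and are shown because each group has the same seed, in capitals, at separate loci or within a cluster. The miR-196a genes lie in the Hox clusters, the miR-379, miR-411 and miR-376 genes in the imprinted Dlk1-Dio3 domain, and the miR-290 family cluster on chromosome 7 is known from embryonic stem cells.
miR-196a-5p of Mir196a-1 (chr11:96265187-96265208, plus strand): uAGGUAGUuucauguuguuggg
miR-196a-5p of Mir196a-2 (chr15:102973365-102973386, plus strand): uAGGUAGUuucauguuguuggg
miR-379-3p of Mir379 (chr12:109709102-109709123, plus strand): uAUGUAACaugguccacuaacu
miR-411-3p of Mir411 (chr12:109710225-109710246, plus strand): uAUGUAACacgguccacuaacc
miR-376b-5p of Mir376b (chr12:109723471-109723492, plus strand): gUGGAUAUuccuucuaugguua
miR-376c-5p of Mir376c (chr12:109722733-109722754, plus strand): gUGGAUAUuccuucuauguuua
miR-291a-3p of Mir291a (chr7:3218968-3218989, plus strand): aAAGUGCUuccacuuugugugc
miR-294-3p of Mir294 (chr7:3220691-3220712, plus strand): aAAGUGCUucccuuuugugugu
miR-295-3p of Mir295 (chr7:3220815-3220837, plus strand): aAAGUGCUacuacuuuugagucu
The H3K27me3 level was 27.5 CPM per kb at Mir196a-1 and 40.5 CPM per kb at Mir196a-2. These hairpins are shorter than a chromatin fragment of 200 to 400 bp, so their counts describe the chromatin around them. Few reads stand behind each value: the microRNA members had a median of 16 H3K27me3 reads summed over 8 libraries (range 5 to 177), and 18 of the 203 had enough reads to be tested.

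The libraries held 2639862 to 6972189 counts for H3K27me3 and 1472251 to 4740371 for H3K4me3. The 12 basal marker genes had a median H3K4me3 level of 101 CPM, with Krt5 at 139, Krt14 at 130 and Acta2 at 117 CPM but Mylk at 5.74 and Trp63 at 1.76 CPM, and none of them was a member. Luminal markers carried H3K4me3 as well, such as Gata3 at 254 and Krt8 at 107 CPM, so the mark does not show the lineage of the cells. H3K4me3 at Tspan8 was higher in the Tspan8hi libraries by 1.68 ± 0.18 (SE) on the log2 scale, whereas at Lgr5 the difference between Lgr5+ and Lgr5- libraries was 0.32 ± 0.14 and did not pass (edgeR adjusted p = 0.961). The H3K27me3 libraries differed in how many genes had no read at all. The effective depth, the percentage of a library's counts that independent reads would need to leave as many genes at 0, was 53.0% ± 14.9 (SD, n = 4) in Tspan8hi and 72.7% ± 2.78 (SD, n = 4) in Tspan8- libraries (exact two-sided permutation test, p = 0.0286, the smallest that 4 against 4 allows). Lgr5-Tspan8hi replicate 1 stood apart with 30.9% and the fewest counts, and results that rest on it are given with and without it. Leaving it out of the rule gave 2094 members.

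The rule fixed the levels, which are given as a description. The median H3K4me3 level of the members was 1.65 CPM (range 0.0527 to 5.00), and 1372 of them (65.2%) lay below 2 CPM. Their median H3K27me3 level was 2.79 CPM per kb, with quartiles of 2.33 and 3.93 and a range of 2.00 to 108, so most sat just above the limit. A level of at least 5 CPM per kb was reached by 334 members and one of at least 10 CPM per kb by 93. Over all autosomal genes the medians were 30.8 CPM for H3K4me3 and 0.563 CPM per kb for H3K27me3. Of the genes with dense H3K27me3, 57.5% were under the H3K4me3 limit and are described here, and the other 1552 had H3K4me3 with a median of 22.2 CPM. On the other side, 6283 genes were low in H3K4me3 without dense H3K27me3. Their median H3K27me3 level, 0.969 CPM per kb, was still above that of all autosomal genes.

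**Figure D1:**
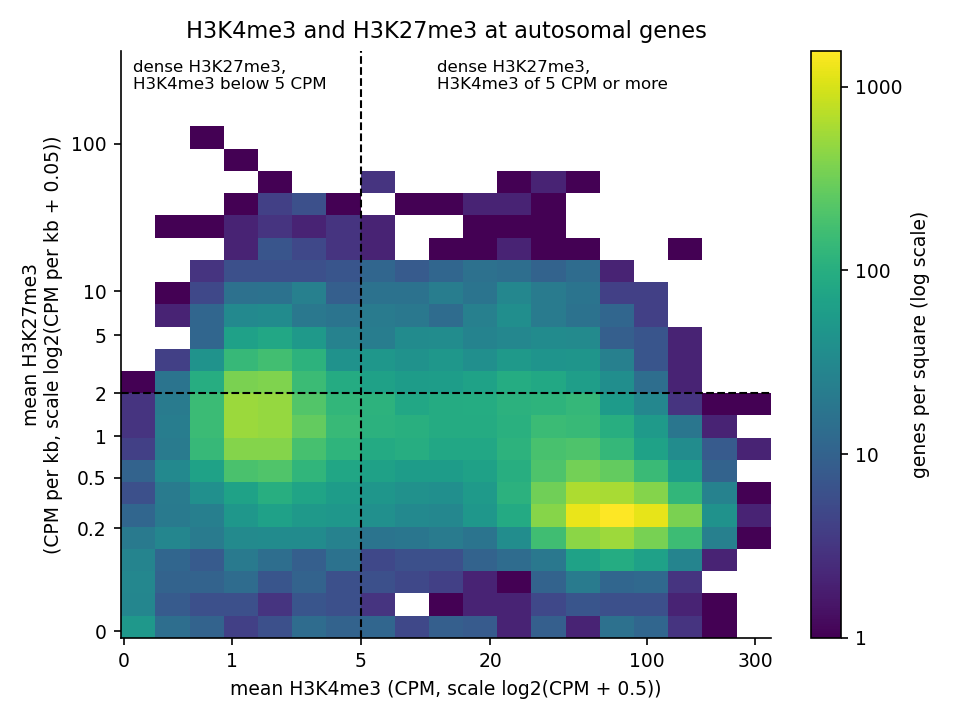
Autosomal genes by their mean H3K4me3 level (x axis, log2 of CPM plus a pseudocount) and mean H3K27me3 level per kb (y axis, log2 of CPM per kb plus a pseudocount), with colour for the number of genes in a square and dashed lines at 5 CPM and 2 CPM per kb. The 2103 members fill the upper left corner, and the 1552 densely marked genes with H3K4me3 the upper right.

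Members close to a limit differ little from the genes across it. Just inside the H3K27me3 limit were Higd1c at 2.002 and Pla2g5 at 2.003 CPM per kb, and just outside were Itgax at 1.999, Hsd17b13 at 1.996 and Ces1f at 1.996 CPM per kb. For H3K4me3, Olah at 4.969, Sgk2 at 4.991 and Gas2l2 at 4.998 CPM were just inside, and Calca at 5.002, Pin1rt1 at 5.033 and Gpr84 at 5.040 CPM just outside. Single libraries also scattered across the limits. The H3K27me3 limit was met in all 8 libraries by 777 members (36.9%) and in at least 6 by 1416, and it was met in at most 3 libraries by 144. Among the 1123 members of at least 2 kb, 593 (52.8%) met it in all 8, against 184 of the 980 shorter ones (18.8%).

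Gene length entered the rule, and the members were short. The H3K27me3 limit is per kb, while the H3K4me3 limit is in CPM and takes no account of length. They had a median length of 2699 bp against 14722 bp for all autosomal genes. Members made up 31.1% of genes under 200 bp, 9.48% of genes from 2 to 10 kb and 2.17% of genes of at least 50 kb. The 259 members under 200 bp had a median of 16 reads summed over the 8 libraries, while the 106 members of at least 50 kb had a median of 8792. The region that the authors counted for each gene is not given in the sources used here, so a density also depends on how well the RefSeq length matches it. It may also differ between the marks. The neighbouring Mir668 and Mir485 had the same mean H3K4me3 level, 2.27 CPM, but 0.660 and 0.379 CPM of H3K27me3. Lacking H3K4me3 therefore means here a level under 5 CPM in the region counted for that mark, which may not be the whole gene. When the larger of the RefSeq and GENCODE M21 lengths was used, 352 members dropped below 2 CPM per kb, 249 of them olfactory, vomeronasal or taste receptor genes. Olfr56 shows the size of the effect, with 90.6 CPM per kb over its 1215 bp RefSeq length and 0.704 CPM per kb over its 156499 bp GENCODE span. Across the olfactory genes with a RefSeq length under 1500 bp the counts rose with the GENCODE span but far less than in proportion to it. Their median was 0.886 CPM where the spans were alike, 1.23 CPM where the GENCODE span was 3 to 6 times longer, 1.34 CPM at 6 to 12 times and 1.36 CPM at over 12 times.

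Developmental regulators were among the densest members. They met the rule about as often as other genes, with 10.3% of Hox genes, 6.96% of other homeobox and Pax genes and 8.37% of other developmental factors against 8.79% of all autosomal genes, but most of those with dense H3K27me3 were at or above the H3K4me3 limit. Of 35 Hox cluster genes with dense H3K27me3, 4 (11.4%) lacked H3K4me3. These were Hoxa11 with 11.6, Hoxb13 with 11.4, Hoxd4 with 8.76 and Hoxd10 with 3.38 CPM per kb, which pattern limbs, tail and trunk. Hoxd4 overlaps Hoxd3 and Mir10b, and Hoxd10 overlaps Hoxd11, so their counts may include those genes. Of 115 other dense homeobox and Pax genes, 11 (9.57%) lacked it, with a median of 8.70 CPM per kb. They included Evx1 at 12.6, Six6 of the eye and pituitary at 10.8 and Otp of the hypothalamus at 9.09 CPM per kb. Of 138 other dense developmental transcription factor genes, 21 (15.2%) were members, with a median of 5.76 CPM per kb. Among them were the basic helix-loop-helix factors Ferd3l at 10.7, Tcf21 at 10.4, Hand1 of the heart at 9.97 and Neurog3 at 9.41 CPM per kb. The share without H3K4me3 over all dense genes was 57.5%, as given above. Developmental ligands were few, with 5 of 57 dense genes: Wnt8b at 5.57, Fgf6 at 4.46, Fgf23 at 4.34 and Bmp10 at 2.49 CPM per kb, and Inhbc. The H3K4me3 medians of the developmental factor members lay nearer the limit than those of the other classes, at 3.54 CPM for Hox, 3.97 CPM for homeobox and Pax and 3.11 CPM for the other factors.

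In several classes of genes for the products of specialised tissues most dense genes lacked H3K4me3. Over all genes of the class, dense or not, the median H3K4me3 level was 2.06 CPM for keratin and epidermal barrier genes. It was 2.38 CPM for immune and 1.94 CPM for neuropeptide and peptide hormone genes, against 30.8 CPM for all autosomal genes. Low H3K4me3 in these classes was therefore not particular to the dense genes. Keratin and epidermal barrier genes gave 51 members of 189 genes (27%), and 94.4% of those with dense H3K27me3 lacked H3K4me3. Krtap5-4 had 7.91, S100z 5.65, Krtap5-1 4.90 and Krtap4-13 4.79 CPM per kb. Immune genes gave 99 members of 574 (17.2%), and 79.8% of the dense ones lacked H3K4me3. Among them were the type I interferons Ifna5 at 9.36, Ifna7 at 8.42 and Ifna4 at 7.43 CPM per kb and the defensin Defa33 at 7.46 CPM per kb. Among the immune members were 3 genes of the CD3 complex of the T cell receptor, with Cd3g at 5.66, Cd3e at 5.58 and Cd3d at 4.26 CPM per kb. Neuropeptide and peptide hormone genes gave 24 of 130 (18.5%), and 50% of the dense ones lacked H3K4me3, under the share over all dense genes. They included Trh, which releases thyrotropin, at 5.4, the gut hormone gene Gip at 5.29, somatostatin (Sst) at 4.14 and parathyroid hormone (Pth) at 3.90 CPM per kb. Channels, receptors and transporters also lay under that share: 27.8% (ion channels), 40.9% (G protein-coupled receptors) and 43.7% (transporters) of the dense genes lacked H3K4me3. Members among them were the potassium channel genes Kcnk15 at 7.90 and Kcna5 at 6.93, the melanocortin receptor gene Mc3r at 4.39, the kidney water channel gene Aqp2 at 4.85 and the glycine transporter gene Slc6a5 at 3.27 CPM per kb. Of the dense extracellular matrix and protease genes 57.1% lacked H3K4me3, and the serine proteases Prss45, Prss43 and Prss34 had 6.06, 5.81 and 5.79 CPM per kb and Hapln2, a link protein of brain matrix, 5.74 CPM per kb. Adhesion and synaptic genes gave 19 members, led by Epha10 at 4.32 and Cldn9 at 3.41 CPM per kb. In the large remainder of named protein-coding genes, 566 of 14103 (4.01%) were members, and the densest were the sperm protamine gene Prm1 at 9.86, the zinc finger gene Sp6 at 9.85, Acta1 at 9.53 and Aym1 at 8.52 CPM per kb.

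**Figure D2:**
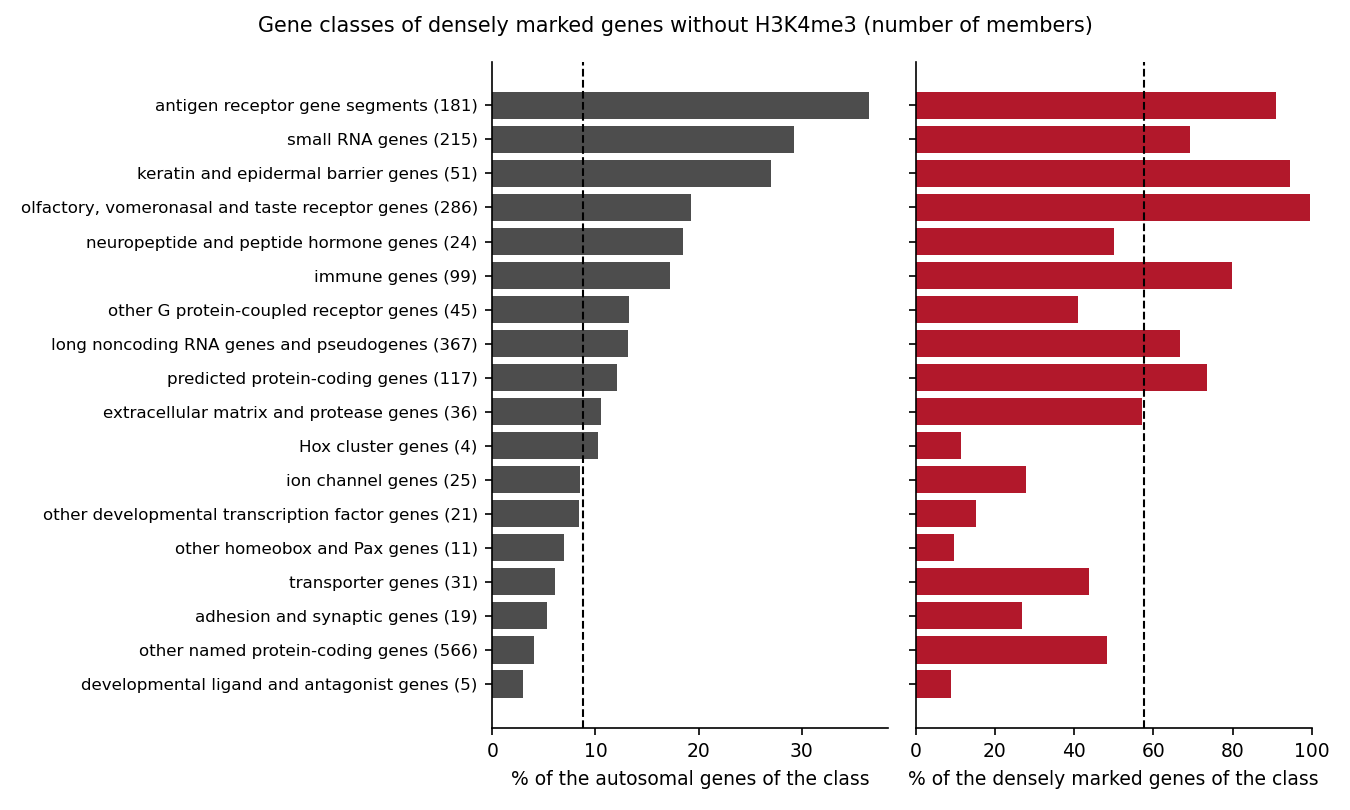
Share of each gene class that met the rule (left, percent of its autosomal genes, dashed line at 8.79%) and share of its densely marked genes that lacked H3K4me3 (right, percent, dashed line at 57.5%), with the number of members in brackets. Hox, homeobox and other developmental factor genes lie at 9.57% to 15.2% on the right, and keratin, antigen receptor and olfactory receptor genes at 91.0% or more. Gene length and the H3K4me3 level over all genes of a class differ between the classes.

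Gene families in large arrays contributed many short members. Olfactory, vomeronasal and taste receptor genes gave 286 of 1485 (19.3%), and 99.7% of the dense ones lacked H3K4me3. Over the whole class, dense or not, the median H3K4me3 level was 1.26 CPM. Apart from Olfr56 the densest were Olfr1416 at 7.50, Olfr329 at 7.14 and Olfr63 at 6.99 CPM per kb. The median of the members was 2.53 CPM per kb at a median length of 948 bp. Antigen receptor segments, which are joined by recombination in lymphocytes, gave 181 of 495 (36.6%) at a median length of 439 bp. Over all segments the median H3K4me3 level was 1.32 CPM. Trbd1, a 12 bp segment, had 42.6 CPM per kb from a level of 0.511 CPM. Small RNA genes gave 215 of 735 (29.3%), led by Mir9-3 at 42.8, Mir196a-2 at 40.5, Mir483 at 34.0 and Mir5126 at 28.3 CPM per kb, and 61.4% of them overlapped another gene. Counts may not separate a gene from another that overlaps it. The values of Mir483 and Mir5126 may therefore include reads of Igf2 and Dner, and those of Mir9-3 reads of its host gene Mir9-3hg. Long noncoding RNA genes and pseudogenes gave 367 members, with Gm6867 highest at 108 CPM per kb over 440 bp, and Hotair of the Hoxc cluster at 11.7 CPM per kb. Near-identical copies make the counts of pseudogenes and of receptor arrays uncertain. Among predicted protein-coding genes, 117 of 964 were members, with Gm4802 at 29.9 CPM per kb.

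The densest protein-coding members of at least 1 kb were followed library by library, in the order Lgr5+Tspan8hi, Lgr5+Tspan8-, Lgr5-Tspan8hi and Lgr5-Tspan8-. Evx1 (chromosome 6, 52313498 to 52318389) had 8.92 and 10.8, then 14.0 and 12.8, then 8.52 and 12.9, and last 13.5 and 19.1 CPM per kb. Its Tspan8- values lay above its Tspan8hi values, except that 12.9 exceeded 12.8. Hoxa11 (chromosome 6, 52242105 to 52245810) had 9.44 and 9.91, 11.4 and 11.1, 10.8 and 12.8, and 11.1 and 16.6 CPM per kb. Its groups overlapped. Both genes overlap an antisense RNA gene, Evx1os and Hoxa11os, so their counts may include it. Neurog3 (chromosome 10, 62133090 to 62134763) had 4.77 and 10.5, 6.73 and 13.3, 8.37 and 9.01, and 7.44 and 15.2 CPM per kb. Except in Lgr5-Tspan8hi its replicates differed by more than the subpopulation means did. Ptf1a (chromosome 2, 19445663 to 19447501), a factor of the exocrine pancreas, had 8.22 and 8.66, 9.72 and 10.8, 4.12 and 8.55, and 9.15 and 15.7 CPM per kb. All 4 of its Tspan8- values lay above all 4 of its Tspan8hi values. Acta1 (chromosome 8, 123891758 to 123894775) had 6.19 and 8.32, 8.56 and 10.8, 8.03 and 10.3, and 10.01 and 14.0 CPM per kb, with overlap. Hoxb13 ranged from 8.75 to 14.6 with a median of 11.1, Six6 from 6.87 to 15.0 with a median of 10.9, and Tcf21 from 6.48 to 14.7 with a median of 10.2 CPM per kb. Hand1 ranged from 7.69 to 12.9 and Sp6 from 8.12 to 12.8 CPM per kb. In the comparison of Tspan8hi with Tspan8- libraries Evx1 differed by -0.57 ± 0.15 (SE; edgeR adjusted p = 0.0787) and Ptf1a by -0.65 ± 0.22 on the log2 scale (edgeR adjusted p = 0.189), and none of the 12 densest genes passed.

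**Figure D3:**
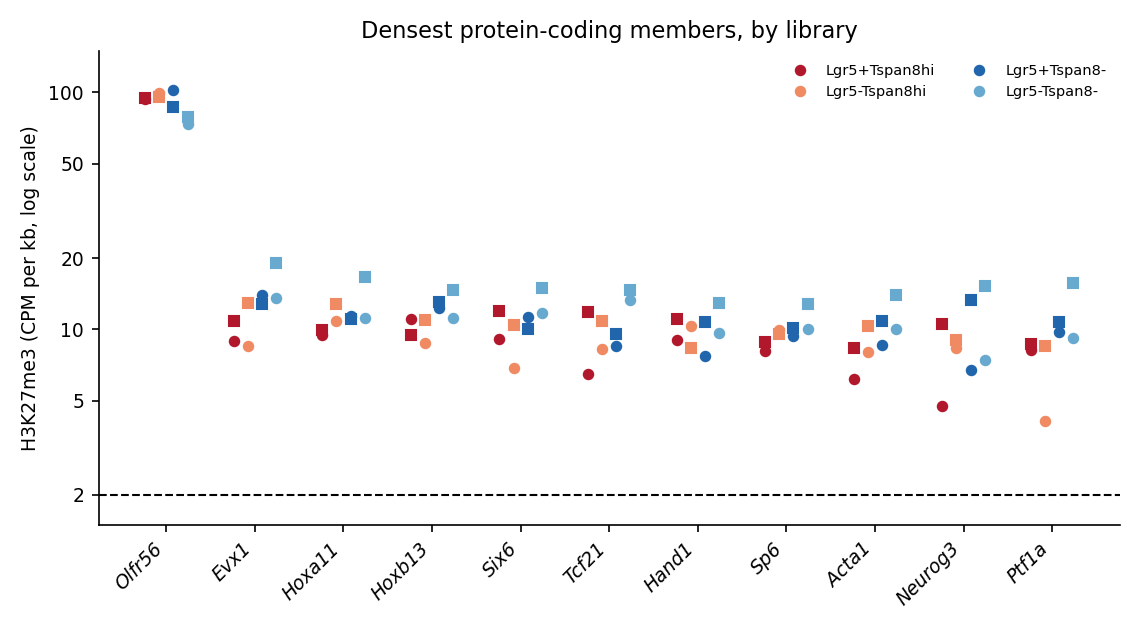
H3K27me3 level (y axis, CPM per kb, log scale) of 11 of the 12 densest protein-coding members of at least 1 kb (x axis) in each library, with circles for replicate 1, squares for replicate 2 and a dashed line at 2 CPM per kb. Apart from Olfr56, at 90.6 CPM per kb, the highest library of each gene is Lgr5-Tspan8- replicate 2.

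Members often lay side by side. With starts within 100 kb joined, 1255 of the 2103 fell into 340 runs of at least 2, and 848 stood alone. Of the runs, 60 held at least 5 members (573 genes, 27.2% of the members). The same joining was not run over all autosomal genes, so these numbers do not show that members cluster more than other genes. The longest run by members was the microRNA and noncoding RNA array of the Dlk1-Dio3 domain on chromosome 12 (109563692 to 109743795, from Mir770 to Mir410), in which only the maternal copy is expressed. There 58 of 67 genes were members, 57 of them small RNA genes, with a median of 5.32 CPM per kb (2.23 to 16.04) and a median H3K4me3 level of 1.53 CPM. The long noncoding RNA gene Rian in it had 2.30 CPM per kb, and by subpopulation 1.94, 2.31, 2.17 and 2.76 CPM per kb in the order used above. The next runs were immunoglobulin heavy chain segments on chromosome 12 (113428514 to 114060273, 32 of 44 genes, median 3.99 CPM per kb) and T cell receptor segments on chromosome 14 (53505790 to 53961602, 28 of 35 genes, median 3.41 CPM per kb). The fourth was a stretch with 18 olfactory receptor genes on chromosome 11 (58379032 to 58926965, 23 of 31 genes, median 3.25 CPM per kb). By chromosome the share of genes that met the rule ran from 5.09% on chromosome 18 to 15.7% on chromosome 12. Within 50 kb of a densely marked gene with H3K4me3 lay 417 members (19.8%), against 15.8% of all autosomal genes. The share was 5.94% of genes low in H3K4me3 without dense H3K27me3 and 41.0% of the dense genes with H3K4me3 themselves.

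The promoters were poorer in CpG, which the rule did not use, than those of densely marked genes with H3K4me3. Windows were found for 1260 members. Their median GC content was 49.0%, their median CpG number 3 and their median observed over expected ratio 0.191, whereas the 1031 windows of dense genes with H3K4me3 had 60.7%, 17 and 0.633. A window counted as CpG-rich if its GC content was at least 50% and its ratio at least 0.6. By that measure 5.16% of the members' windows were CpG-rich, against 51.8% for dense genes with H3K4me3 and 46.2% for all 17537 windows. It was 3.93% for the 4407 windows of genes low in H3K4me3 without dense H3K27me3. In CpG the members' windows thus lay near those of genes low in H3K4me3 without dense H3K27me3. By class the CpG-rich windows were 2 of 3 in Hox (66.7%), 2 of 6 in homeobox and Pax (33.3%) and 5 of 17 in other developmental factors (29.4%). The share was also above the members' 5.16% in neuropeptide (25% of 20), adhesion and synaptic (23.1% of 13) and ion channel genes (21.1% of 19), and it was 0 of 5 in developmental ligands. These class counts are small and were not tested. The 65 CpG-rich members had a median of 3.22 CPM per kb and 3.23 CPM of H3K4me3, and the 1195 others had 2.64 CPM per kb and 1.62 CPM.

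Short motifs were searched on both strands. TATAAA, the TATA box letters, occurred in 22.5% of the members' windows and in 13.1% of all windows of the same length. In genes low in H3K4me3 without dense H3K27me3 it was in 26.4%, so it was not particular to the members. Within the members it was in 55.8% of 43 keratin and epidermal windows, 45% of 20 neuropeptide windows and 26.2% of 248 olfactory windows. GGGCGG, the letters bound by Sp1, occurred in 12.9% of the members' windows and 46.5% of all. The E-box letters CACGTG were in 5.4% against 8.01%, and CAGCTG in 17.9% against 15.6%. TTTAAA was in 14.7% against 11.7%, and GAGAG in 64.1% against 62.0%. In genes low in H3K4me3 without dense H3K27me3 GGGCGG was in 9.83%, CACGTG in 3.86% and CAGCTG in 16.2%. There TTTAAA was in 18.5% and GAGAG in 60.2%. A match is a description of the letters, not a bound site, and none of these motifs contains another.

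H3K27me3 was compared between the 4 Tspan8hi and 4 Tspan8- libraries, which asks how the mark differs with Tspan8. In sorted populations a lower level cannot tell fewer marked cells from less of the mark per cell. Of the 2103 members, 1765 had enough reads, and 5 of these passed at an edgeR adjusted p under 0.05, all lower in Tspan8hi. That is 0.283% of the members tested, while 0.335% of all 22099 genes tested passed, so the share was near the background. The lower calls alone were 0.24% of all genes. Syt14, a synaptotagmin gene (chromosome 1, 192882653 to 193035871), had 256, 269, 309 and 295 CPM in the Tspan8hi libraries and 388, 343, 431 and 414 CPM in the Tspan8- libraries. The values did not overlap, and the log2 fold change was -0.53 ± 0.09 (SE; edgeR adjusted p = 0.00398). Cxcl9, a chemokine gene induced by interferon (chromosome 5, 92321331 to 92328079), had 18.5, 17.1, 16.3 and 18.4 CPM in Tspan8hi and 27.4, 25.2, 38.0 and 38.0 CPM in Tspan8- libraries. Its values did not overlap either, and the change was -0.89 ± 0.16 (edgeR adjusted p = 0.00987). Fsd2, a gene of striated muscle (chromosome 7, 81534354 to 81566981), had 67.8, 64.1, 60.2 and 86.2 CPM in Tspan8hi and 83.9, 107, 108 and 135 CPM in Tspan8- libraries, with 1 value of each group overlapping. Its change was -0.68 ± 0.13 (edgeR adjusted p = 0.0115).

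The remaining calls lay closer to the threshold. Slc14a1, a urea transporter gene, had 89.7, 85.3, 86.0 and 97.8 CPM in Tspan8hi and 107, 108, 126 and 152 CPM in Tspan8- libraries (-0.50 ± 0.11, edgeR adjusted p = 0.0403). Lmo2, a regulator of blood and vessel development (chromosome 2, 103957903 to 103981878), had 88.0, 116, 93.2 and 109 CPM in Tspan8hi and 129, 132, 139 and 154 CPM in Tspan8- libraries (-0.50 ± 0.11, edgeR adjusted p = 0.0484). Neither gene had overlapping groups. Both lost the call with library totals alone in place of TMM scaling, where the edgeR adjusted p was 0.0679 for Slc14a1 and 0.0764 for Lmo2. They also lost it with loess offsets fitted for each library against abundance (edgeR adjusted p = 0.0608 and 0.0647). With such offsets against reads per kb the edgeR adjusted p was 0.0798 and 0.187. Leaving out 1 library ended the call of every one of the 5 at least once, with adjusted p up to 0.0582 for Syt14, 0.112 for Cxcl9, 0.181 for Fsd2, 0.212 for Slc14a1 and 0.341 for Lmo2. Over the whole set, 2 members passed without Lgr5-Tspan8hi replicate 1, Lgr5+Tspan8hi replicate 2 or Lgr5-Tspan8- replicate 2. Leaving out Lgr5+Tspan8hi replicate 1 gave 0 members, and leaving out either Lgr5+Tspan8- library gave 1. The count was 63 (54 lower) once Lgr5-Tspan8hi replicate 2 was dropped, which is 3.43% of the members then tested against 2.54% of all genes. It was 146 (144 lower) once Lgr5-Tspan8- replicate 1 was dropped, which is 7.85% against 5.22%. In the other 6 of these fits the share of all genes that passed was 0.0553% to 0.164%.

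**Figure D4:**
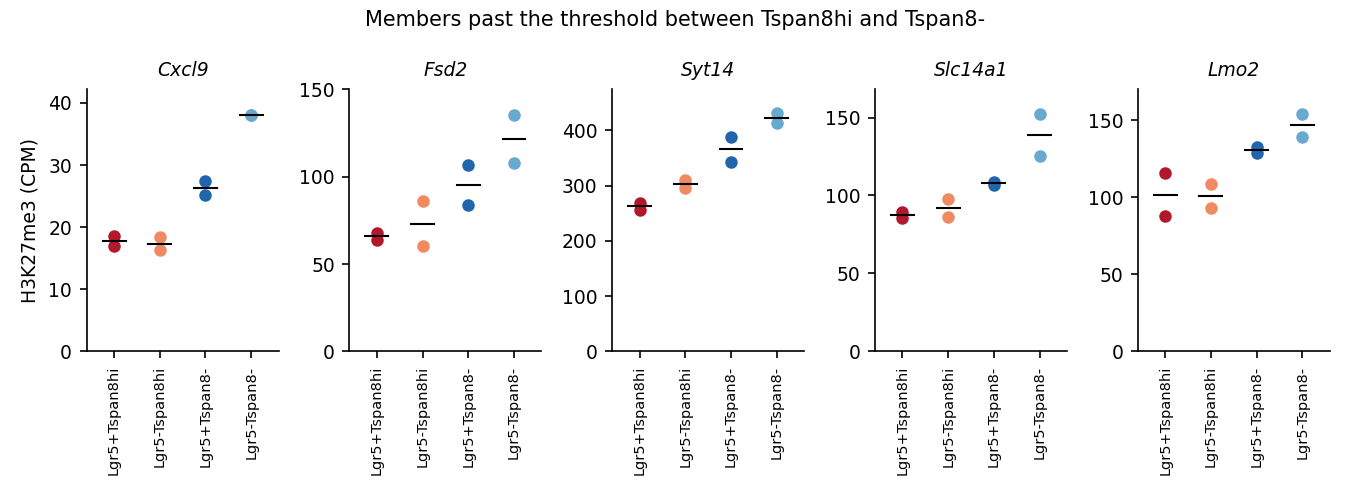
H3K27me3 level (y axis, CPM) of the 5 members that passed in the comparison by Tspan8, for each library of the 4 subpopulations (points) with the mean of the 2 libraries (bars). In Syt14, Cxcl9, Slc14a1 and Lmo2 every Tspan8- library lies above every Tspan8hi library, and in Fsd2 1 value of each side overlaps.

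Below the threshold the members leaned to the lower side with TMM scaling and not with offsets fitted for each library against reads per kb. Their median log2 fold change was -0.14 with TMM, with 1203 of 1765 (68.2%) below 0, against 0.02 and 47.3% over all genes tested. The median of dense genes with H3K4me3 was farther below 0, at -0.22, so the lean was not particular to the members. With the offsets the members' median was 0.03, with 801 (45.4%) below 0, against 0.00 for all genes and -0.02 for dense genes with H3K4me3. These offsets follow the mean H3K27me3 per kb that chose the members, so a median near 0 was largely set in advance. An unadjusted p under 0.05 was reached by 293 members (16.6%, 262 lower and 31 higher), against 12.9% of all genes (7.62% lower and 5.27% higher). DESeq2 called 49 members, all lower, which is 2.78% against 2.17% of all genes (1.75% lower). Of the 5 edgeR calls 4 were among them, and Cxcl9 was not. With limma-voom 31 passed (29 lower and 2 higher), which is 1.76% against 1.54% (1.16% lower and 0.376% higher). With library totals alone the members' median was -0.08 and that of all genes 0.07, and with 1 library left out the members' median ran from -0.20 (without Lgr5-Tspan8- replicate 1) to -0.07 (without Lgr5-Tspan8- replicate 2). It was -0.17 without Lgr5-Tspan8hi replicate 1. Among classes the TMM medians were -0.36 for Hox, -0.31 for other developmental factors (19 of 21 below 0), -0.28 for homeobox and Pax, -0.25 for ion channels (25 of 25 below 0), -0.17 for immune and -0.04 for keratin and epidermal genes. With the offsets these were -0.13, -0.09, -0.03, -0.04, -0.01 and 0.12. For olfactory receptor genes the median was 0.07 with TMM (128 of 285 below 0) and 0.21 with the offsets, and for antigen receptor segments 0.20 (21 of 65) and 0.39. In levels, and in the order used for the densest genes, the median of the Hox members was 8.61, 9.81, 8.81 and 12.1 CPM per kb. That of the olfactory members was 2.75, 2.58, 2.91 and 2.43 CPM per kb over the same subpopulations, and that of all members 2.69, 2.87, 2.89 and 2.80.

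The median was also read by density. For all tested members with TMM it was -0.11 at 2 to 3 CPM per kb (1079 genes), -0.16 from 3 to 5 (470), -0.25 from 5 to 10 (162) and -0.10 at 10 or more (54), so the densest bin was not the farthest below 0. For the tested members of at least 2 kb the median log2 fold change by Tspan8 was -0.13 in the bin of 2 to 3 CPM per kb (741 genes), -0.20 from 3 to 5 (278), -0.31 from 5 to 10 (88) and -0.29 at 10 or more, a bin of only 16. With the offsets against reads per kb, the medians of the same bins were 0.01, -0.00, -0.07 and -0.05. The bins are of the density to which the offsets were fitted, so values near 0 do not test the lean. Under these offsets 5 members passed, 2 higher and 3 lower, and 3 of them were among the 5 above. That is 0.283% of the members tested against 0.683% of all genes. In the same libraries the members' share of all H3K27me3 counts was 6.99% ± 0.35 in Tspan8hi and 7.62% ± 0.47 in Tspan8- (SD, n = 4 each), ranging from 6.53% to 7.29% and from 7.24% to 8.22%. The median density of members of at least 2 kb was 5.39 ± 0.48 times that of all autosomal genes of that length in Tspan8hi and 6.56 ± 0.81 times in Tspan8- (SD, n = 4 each). The effective depth given above was lower in Tspan8hi as well. Its part in the members' median was not tested.

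**Figure D5:**
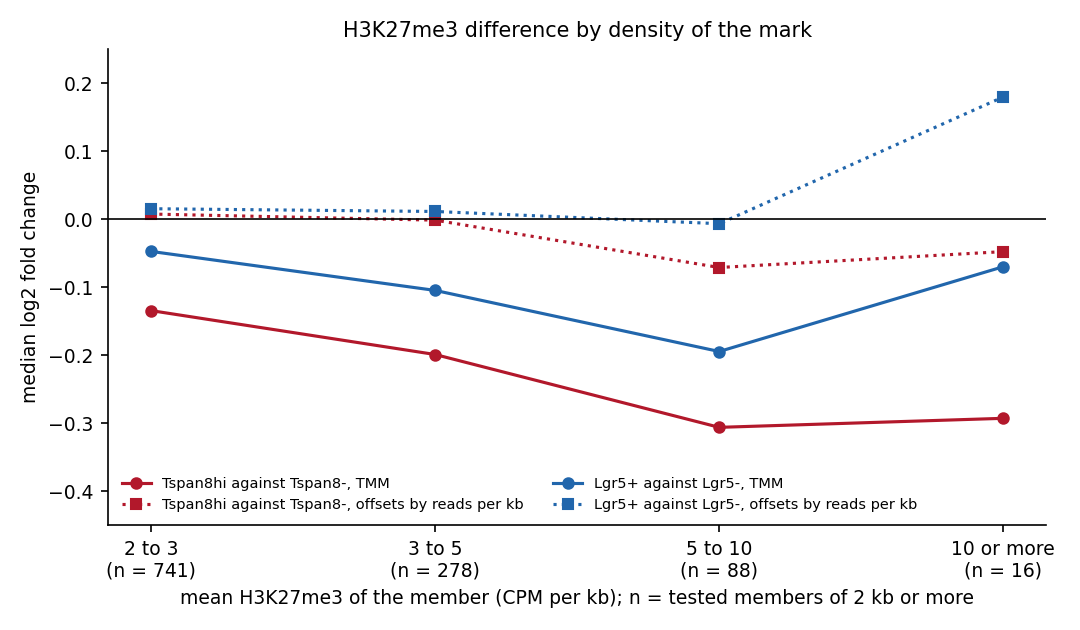
Median log2 fold change of H3K27me3 (y axis) for tested members of at least 2 kb by H3K27me3 density bin (x axis, CPM per kb; 741, 278, 88 and 16 genes), for Tspan8hi minus Tspan8- in red and Lgr5+ minus Lgr5- in blue. Solid lines use TMM scaling and run from -0.13 to -0.31 for Tspan8, and dotted lines use offsets against reads per kb and stay between -0.07 and 0.01 for Tspan8. The offsets were fitted against the density on the x axis, so dotted values near 0 were largely set in advance.

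The same libraries were then split by Lgr5, and no member passed for H3K27me3 with edgeR, while 0.0407% of all genes did. An unadjusted p under 0.05 was reached by 136 members (7.71%, 108 lower and 28 higher) against 7.19% of all genes (4.11% lower and 3.08% higher). DESeq2 called 2 members (0.312% of all genes, 0.222% lower) and limma-voom 1 (0.24% of all genes, 0.154% lower), all lower in Lgr5+. With edgeR 4 members passed once Lgr5-Tspan8hi replicate 2 was dropped (0.218% of members tested, 0.623% of all genes), and 17 passed once Lgr5-Tspan8- replicate 1 was (0.914% and 0.679%). The members' median log2 fold change was -0.07 with TMM and 0.02 with the offsets against reads per kb, while that of all genes was -0.01 with TMM. One library decided it: without Lgr5-Tspan8- replicate 2 the members' median was 0.00 (49.8% below 0), and without Lgr5-Tspan8- replicate 1 it was -0.12. By density, in members of at least 2 kb, it was -0.05, -0.10, -0.19 and -0.07 with TMM and 0.02, 0.01, -0.01 and 0.18 with the offsets, in the bins used for Tspan8. The smallest p belonged to Cyp26b1, which encodes an enzyme that breaks down retinoic acid (chromosome 6, 84571414 to 84593908). It had 67.9, 67.8, 72.1 and 79.1 CPM across the Lgr5+ libraries and 80.7, 80.8, 119 and 128 CPM across the Lgr5- libraries. The groups did not overlap, but at -0.48 ± 0.11 the difference missed the threshold (edgeR adjusted p = 0.0968). Cyp1a1, an enzyme gene induced through the aryl hydrocarbon receptor, had 46.9, 50.2, 66.0 and 70.1 CPM in Lgr5+ and 86.7, 67.8, 74.7 and 104 CPM in Lgr5- libraries, which overlap (-0.53 ± 0.13, edgeR adjusted p = 0.171). The noncoding RNA gene 9630028H03Rik (-0.84 ± 0.20, edgeR adjusted p = 0.155) and the predicted gene Gm725 (2.29 ± 0.61, edgeR adjusted p = 0.255) were the other two of the 4 with the smallest p.

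Whether the Tspan8 difference itself changed with Lgr5 was tested as an interaction, in which no member passed with edgeR, DESeq2 or limma-voom (0.00905%, 0.0272% and 0.00905% of all genes). Leaving out Lgr5-Tspan8hi replicate 2 gave 4 members with edgeR, 0.218% of those tested against 0.468% of all genes. An unadjusted p under 0.05 was reached by 67 members (3.8%) against 5.5% of all genes. Slc28a1, a nucleoside transporter gene, had 124 and 140, 157 and 170, 163 and 157, and 124 and 124 CPM over the subpopulations in the order of the densest genes above. Its Tspan8 difference therefore pointed down within Lgr5+ cells and up within Lgr5- cells. The interaction of -0.66 ± 0.20 missed the threshold (edgeR adjusted p = 0.584). Slc28a1 overlaps Ndufs6b, so its counts may include that gene. Gm12407 had the smallest p, with an interaction of -3.02 ± 0.82 (edgeR adjusted p = 0.459) at levels of 1.02 to 10.6 CPM.

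H3K4me3, which the rule kept low, could be tested in 496 members, those with enough reads. None passed by Tspan8 with edgeR, DESeq2 or limma-voom, which called 0.0473%, 0.0473% and 0.0894% of all genes, and 25 members (5.04%) had an unadjusted p under 0.05 in edgeR against 5.9% of all genes. Their median log2 fold change was -0.37 with TMM (347 of 496 below 0) and -0.08 with loess offsets against abundance, and for the genes low in both marks it was -0.29 with TMM. The effective depth of the H3K4me3 libraries averaged 34.3% in Tspan8hi (16.6% to 47.99%) and 82.7% in Tspan8- (55.5% to 103.85%). The exact two-sided permutation test gave p = 0.0286. In the lowest library, Lgr5-Tspan8hi replicate 1, the members' median H3K4me3 level was 0 CPM. Leaving that library out of the rule gave 2089 members, and leaving it out of the fit gave a median of -0.48 over 1089 tested members. The part of depth in the members' median was not tested. The members' median was -1.21 in the fit lacking Lgr5-Tspan8hi replicate 2, and -0.74 in that lacking Lgr5+Tspan8hi replicate 1. It was -0.17 when Lgr5+Tspan8- replicate 2 was dropped and -0.24 when Lgr5-Tspan8- replicate 2 was. Between 929 and 1089 members were tested in these fits, against 496 in the main fit, so the gene set changed along with the libraries. With all 8 libraries and no filter on low counts the median was -0.54 over 2103 members. The part of single libraries in these shifts was not tested. None passed by Lgr5 with the same tools, which called 0.0421%, 0.0263% and 0.0473% of all genes, and 16 members (3.23%) had an unadjusted p under 0.05 in edgeR against 4.98%. The members held 0.260% to 0.548% of the H3K4me3 counts of a library.

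Marker genes of the cell types that a basal sort could also hold were read for both marks. None of 12 luminal, 8 fibroblast or 6 endothelial markers was a member, and their median H3K4me3 levels were 50.5, 31.2 and 7.44 CPM. Of 8 immune markers, 7 lay below 5 CPM of H3K4me3 and Cd3e and Lyz2 were among the members, with 5.58 and 2.12 CPM per kb of H3K27me3. The pan-leukocyte gene Ptprc had 3.35 CPM of H3K4me3. Summed over the 8 immune markers, H3K4me3 ran from 33.5 to 44.5 CPM in Tspan8hi and from 23.2 to 42.1 CPM in Tspan8- libraries, which overlap. The Polycomb machinery itself was outside the set. Bmi1 of PRC1 had dense H3K27me3, at 5.93 CPM per kb, but 96.0 CPM of H3K4me3. Rbbp7 of PRC2 had 2.60 CPM per kb of H3K27me3 and 61.6 CPM of H3K4me3. It lies on the X chromosome, so the rule left it out at any level. Pcgf5 of PRC1 had 3.19 CPM of H3K4me3 and 0.256 CPM per kb of H3K27me3. The 11 genes of PRC2 had median levels of 94.2 CPM of H3K4me3 and 0.258 CPM per kb of H3K27me3, the 18 genes of PRC1 77.7 CPM and 0.301 CPM per kb, and the 9 genes for H3K27 demethylases and H3K4 methyltransferases 152 CPM and 0.222 CPM per kb. None of them passed in any of the 5 comparisons with edgeR.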

How the data were processed

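Chromatin was sheared to 200 to 400 bp, per the labels' protocols. The authors deposited raw read counts for 27080 Entrez genes in each of 16 libraries, made with featureCounts on mm10 per the submitters' processing notes. Aligner, versions, annotation and counted region: not given in the sources used here. Input samples (8) were not analysed here. RefSeq (GRCm38.p6) gave symbols, lengths and sequences for 25189 genes, and 1273 of these are not autosomal.

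Each mark was fitted on its 8 libraries with edgeR 4.0.16 in R 4.3.3 (filterByExpr, TMM, robust quasi-likelihood test, Benjamini-Hochberg adjustment over 22099 genes for H3K27me3 and 19009 for H3K4me3). The biological coefficient of variation was 16.8% for H3K27me3 and 16% for H3K4me3, with 4 residual degrees of freedom. DESeq2 1.42.0, limma-voom (limma 3.58.1), other scalings, filters and limits, the replicate block and each library left out were alternatives. On simulated counts for the Tspan8 comparison, 95.5% of 200 changes of 2-fold were recovered over 21432 genes for H3K27me3. The changed genes were drawn from those above the median abundance, and all genes had the same dispersion. The rate therefore does not hold for members with few reads or for smaller changes. Lengths from GENCODE were added after seeing the data.

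The members and lists were chosen with earlier results of these data known, and class patterns were corrected after seeing values. Named were the 12 densest protein-coding members of at least 1 kb, up to 4 densest members of a class, members past the threshold or the 4 smallest p, 3 genes on each side of a limit, the 4 longest runs, and Lgr5 and Tspan8. Rian, Hotair, Cd3d, Cd3e, Cd3g and Inhbc, and the microRNAs shown, were chosen with their values in view. Some named items are not reported here.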

Additional observations from a re-analysis of the deposited data

Results flagged for a closer look

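One group of libraries held a value far from the others. Among the 4 Tspan8hi H3K27me3 libraries the effective depth of Lgr5-Tspan8hi replicate 1 was 30.9%, while the highest of the group was 63.2%. Its gap to the nearest library was 0.832 of the range of the group, above the limit of Dixon's test for 4 samples at 95%. In all 22 groups were checked, and chance marks about 1 in 20. Without this library the rule gave 2094 members, 2 members passed in the comparison by Tspan8 and the members' median log2 fold change was -0.17.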

How the results depend on the processing

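The number of members depends on the limits: it was 5104 at 1 CPM per kb or more, 881 at 3 CPM per kb or more, 1372 with H3K4me3 under 2 CPM and 1123 with genes of at least 2 kb only, while leaving out 1 library gave 2077 to 2124. The 5 members that passed by Tspan8 for H3K27me3 became 3 with library totals alone (0.17% of members tested, 0.29% of all genes). The count was 33 with no filter (1.57% and 1.17%), 49 with DESeq2 (2.78% and 2.17%) and 31 with limma-voom (1.76% and 1.54%). It was 2 with the limit at 3 CPM per kb and 3 with H3K4me3 under 2 CPM, where 0.335% of all genes passed. With 1 library left out it was 0 to 146, as given above. By Lgr5 the count of 0 became 2 with offsets against reads per kb (both higher, 0.113% of members tested and 0.315% of all genes). It was 2 with DESeq2 (0.113% and 0.312%), 1 with limma-voom (0.0567% and 0.24%), and 0 to 17 with 1 library left out. For the interaction, leaving out 1 library gave 0 to 4. For H3K4me3 the count was 0 under every alternative run. The deviations of same-numbered replicates correlated at -0.03 to 0.14, not over 0.1 in every pair, so the numbers were not taken to pair the libraries, although replicate 2 held the higher members' share of H3K27me3 counts in all 4 subpopulations. With the replicate number as a block 62 members passed by Tspan8 (3.51% of members, 3.08% of all genes) and 2 by Lgr5 (0.113% and 0.362%). The causes of these changes were not tested. Reads limit the short members most, since those under 200 bp had a median of 16 reads in all, and replicates of a subpopulation differed by more than counting noise.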
